A study of Homo sapiens with 24 samples.

Results

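The mevalonate and cholesterol synthesis enzymes examined here are 9 of the 20037 protein-coding genes of the annotation used: HMGCS1, MVK, PMVK, MVD, IDI1, FDPS, FDFT1, SQLE and LSS. They were chosen by name, for their place in the pathway, and earlier results of these data were known when they were chosen. A gene counted as marked when a listed Myc peak reached within 1 kb of either end of its RefSeq gene span in hg38. The assay was CUT&Tag for Myc: a transposase is tethered to the antibody-bound protein and tags the DNA beside it, so bound sites stand out as peaks of sequenced fragments. Both libraries came from MIA PaCa-2 cells, a long-used line from a human pancreatic carcinoma, in which MED30, a subunit of the Mediator complex, is under doxycycline control. In one library the cells had received doxycycline, day 5 by its title, and in the other none. The shared protocol speaks of 2 days of doxycycline, and the title was followed. The series asks whether raising MED30, or knocking it down in MIA PaCa-2 cells labelled shMED30, changes where other factors bind. The Myc libraries belong to the first of these. The labels do not say whether the line is 1 clone. The remaining 22 of the 24 samples, among them control IgG libraries, were not analysed here, so peaks that IgG would also give were not removed. Peak lists carry no expression values, so the cell line could not be set against marker genes.

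The mevalonate pathway builds isoprenoids and sterols from acetyl-CoA. HMGCS1 makes HMG-CoA, from which mevalonate is formed. MVK and PMVK add phosphates, MVD removes a carboxyl group to give isopentenyl diphosphate, and IDI1 isomerises it. FDPS joins these units into farnesyl diphosphate, the branch point toward prenylated proteins, ubiquinone and dolichol. FDFT1 makes squalene, SQLE oxidises it, and LSS closes the ring to lanosterol, the first sterol. SREBP transcription factors are known to drive these genes when sterols are low, together with NF-Y, which binds CCAAT, and Sp1, which binds GC boxes. Myc binds DNA with its partner Max, with a preference for the E-box CACGTG.

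The promoters of 5 enzymes are shown. MVK, PMVK, IDI1 and LSS had the 4 highest-ranked start peaks among the enzymes in each library, and MVD had a listed start with no peak in either. Each run holds the 250 bases before a start listed by RefSeq (GRCh38.p14, the hg38 assembly), 5′ to 3′ on the strand of the gene. For PMVK and IDI1 that start lies inside the gene span. Capitals mark CCAAT, the Sp1 box GGGCGG and the weaker E-box CACGCG, each on either strand.
MVK, chr12:109573544-109573793, plus strand: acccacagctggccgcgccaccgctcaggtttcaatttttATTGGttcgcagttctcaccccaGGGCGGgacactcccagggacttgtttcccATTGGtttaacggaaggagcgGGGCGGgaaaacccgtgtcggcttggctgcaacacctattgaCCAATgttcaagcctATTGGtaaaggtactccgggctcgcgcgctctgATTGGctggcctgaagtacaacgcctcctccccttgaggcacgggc
PMVK, chr1:154936720-154936969, minus strand: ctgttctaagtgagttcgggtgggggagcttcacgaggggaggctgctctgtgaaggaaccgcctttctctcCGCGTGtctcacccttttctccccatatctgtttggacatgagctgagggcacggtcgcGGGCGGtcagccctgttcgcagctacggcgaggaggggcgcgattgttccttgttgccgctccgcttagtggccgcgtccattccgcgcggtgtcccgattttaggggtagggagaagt
IDI1, chr10:1049120-1049369, minus strand: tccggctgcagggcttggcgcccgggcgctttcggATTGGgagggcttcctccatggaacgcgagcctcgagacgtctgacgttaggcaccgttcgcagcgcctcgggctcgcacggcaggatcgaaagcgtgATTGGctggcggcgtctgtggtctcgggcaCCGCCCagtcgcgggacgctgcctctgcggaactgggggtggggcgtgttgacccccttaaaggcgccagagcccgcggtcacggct
LSS, chr21:46228775-46229024, minus strand: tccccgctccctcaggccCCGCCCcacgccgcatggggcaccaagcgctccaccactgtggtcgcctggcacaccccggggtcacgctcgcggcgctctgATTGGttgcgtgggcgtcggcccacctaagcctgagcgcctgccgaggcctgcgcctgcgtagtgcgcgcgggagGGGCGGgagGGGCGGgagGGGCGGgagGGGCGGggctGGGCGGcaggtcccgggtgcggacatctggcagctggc
MVD, chr16:88663092-88663341, minus strand: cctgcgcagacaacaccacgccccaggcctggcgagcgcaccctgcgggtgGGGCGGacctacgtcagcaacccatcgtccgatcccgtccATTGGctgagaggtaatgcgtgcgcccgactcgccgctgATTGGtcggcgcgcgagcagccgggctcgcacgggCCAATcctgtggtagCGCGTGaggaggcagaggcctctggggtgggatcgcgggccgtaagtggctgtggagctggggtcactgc

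The listed starts of 7 of the 9 enzymes gave 10 promoter windows of 300 bases, from 250 before to 50 after the start. FDFT1 and SQLE had no entry. Genes with several starts have several windows. CCAAT, in either orientation, stood in the windows of 6 of the 7 genes, all but PMVK, against 42.1% of the 15843 protein-coding genes with a listed start. MVK had 5 copies in its window. The Sp1 box GGGCGG stood in the windows of all 7 genes, against 64.3% of genes. CACGTG, which reads the same on both strands and was counted once, was found in LSS alone, against 10.9% of genes. It lay 40 to 45 bases past the LSS start, in the run below from chr21:46228725-46228740 on the minus strand, with the E-box in capitals:
LSS: ggagggCACGTGagtc
CACGCG was found at PMVK and MVD, against 18.1% of genes. The sterol regulatory element, searched only as TCACNCCAC, was in none of the 7, against 1.51% of genes. With so rare a sequence, its absence from 7 genes does not show that they lack such elements. CCAAT and its reverse overlapped by a pair of bases in 1 further IDI1 window, and no other motifs overlapped. The windows of the enzymes had a median GC content of 69.0%, against 62.3% over all 22199 windows. Among all windows, 39.6% of those with CACGTG and 22.4% of those without overlapped a Myc peak at day 5. In the library without doxycycline 23.7% and 11.2% did. Such a gap was not particular to CACGTG. The day 5 shares with and without the motif were 38.1% and 21.4% for CACGCG and 31.6% and 13.7% for GGGCGG. They were 27.3% and 21.9% for CCAAT, and 17.5% and 23.9% for TCACNCCAC. A letter match is a description and not a site.

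Myc peaks lay near the gene ends of most of the enzymes at day 5, and of fewer without doxycycline. At day 5, 7 of the 9 had a peak within 1 kb of an end of the gene span, namely HMGCS1, MVK, MVD, IDI1, FDPS, SQLE and LSS. Over all 20037 protein-coding genes the share was 27.4%. Without doxycycline 4 of the 9 had one, HMGCS1, MVK, FDPS and LSS, against 14.4% of all genes. These 4 were in both lists, against 12.9% of all genes, and MVD, IDI1 and SQLE were marked at day 5 only, against 14.5%. None was marked without doxycycline only. The day 5 list is longer, with 6727 peaks on chromosomes 1 to 22, X and Y, against 3472 without doxycycline. With 1 library per condition no difference has a replicate check, no p-value can be given, and each comparison is of these 2 libraries.

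The difference between 7 enzymes marked at day 5 and 4 without doxycycline changed with the part of the gene that was counted. When only listed starts were counted, 6 of the 7 enzymes with a listed start had a peak within 1 kb at day 5, and the same 6 had one without doxycycline: HMGCS1, MVK, PMVK, IDI1, FDPS and LSS. Over the 15843 genes with a listed start the shares were 30.1% at day 5, 16.0% without doxycycline and 14.3% in both. PMVK entered because its listed start lies inside its span, and its day 5 peak was 5148 bp from the nearest end. IDI1 was bound in both lists at starts inside its span. SQLE, marked at day 5 by an end of its span, had no listed start to count. MVD dropped out, because its day 5 peak lay past its far end and not at its start. With an end or a listed start counted, 8 of 9 enzymes were marked at day 5 and 6 of 9 without doxycycline, all 6 of them in both lists. The shares of all genes were then 29.2%, 15.4% and 13.8%. This last count was added after seeing the data. The distance limit separated the enzymes widely. Of those marked by gene ends, the peak farthest out was that of MVD, 523 bp from the end, and the nearest peak just outside was that of PMVK.

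**Figure D1:**
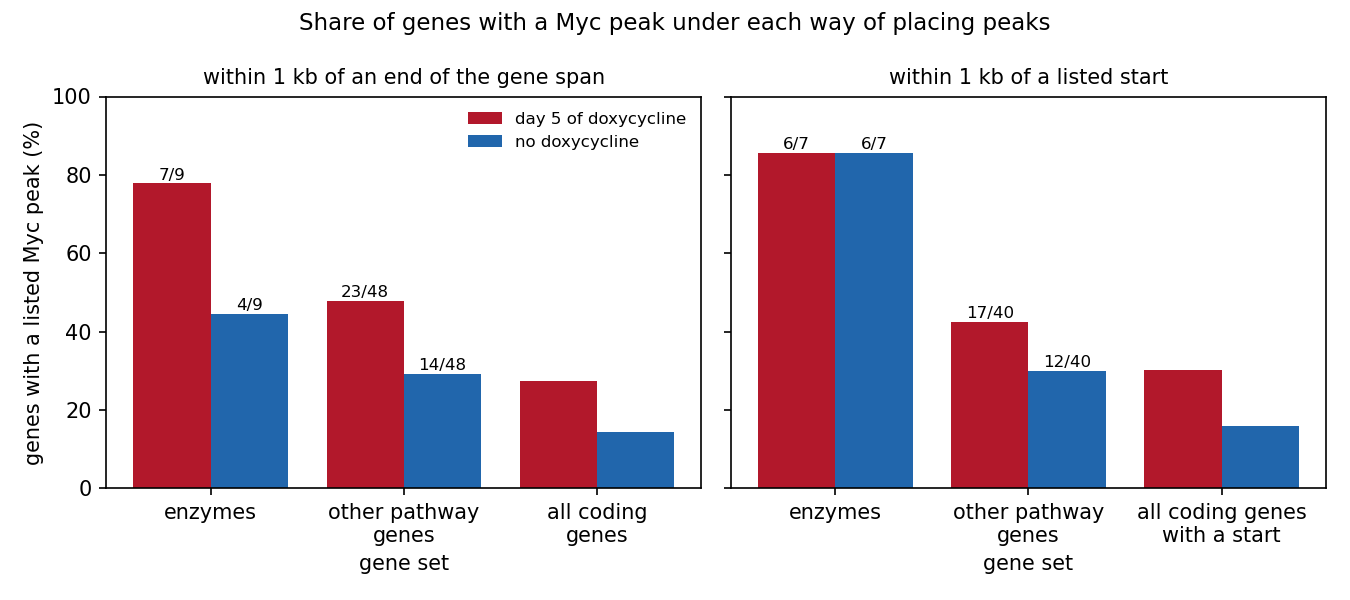
Share of genes (%, linear axis from 0) with a listed Myc peak at day 5 (red) and without doxycycline (blue), for the enzymes, the other pathway genes and all protein-coding genes, with peaks placed by gene ends (left) or by listed starts (right). Numbers above bars are genes marked of genes examined. By ends the enzymes stand at 7 and 4 of 9, and by listed starts at 6 of 7 in both libraries.

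The number of fragments over each summit was recovered from the deposited fold and p-value of the peak. Intervals in brackets are exact Poisson 95% intervals and cover counting error only. Sequencing depth is unknown, as the lists give no read totals, and fragments are therefore set beside the median over coding genes. Among the 2236 genes with overlapping peaks at a listed start in both lists, the median was 18 fragments at day 5 and 12 without doxycycline. The median ratio of day 5 over no doxycycline was 1.44 (quartiles 1.13 and 1.83), so a ratio near 1.44 is what a typical bound gene showed. The −log10 q-values below are the authors' and rank peaks within one list only.

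Among the early enzymes, which build mevalonate and phosphorylate it, the kinases MVK and PMVK held the strongest day 5 peaks of the 9. HMGCS1 (chromosome 5, span 43287470 to 43313412) had 10 fragments (4.80 to 18.4) at day 5 and 6 (2.20 to 13.1) without doxycycline. Its start lay inside both peaks, whose summits were 245 bp before the start at day 5 and 68 bp after it without doxycycline. The peak ranked 3118 of 6727 at day 5 and 2453 of 3472 without doxycycline.

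MVK (chromosome 12, span 109573272 to 109598125), the mevalonate kinase, had 28 fragments (18.6 to 40.5) at day 5 and 14 (7.65 to 23.5) without doxycycline. The ratio of 2.00 had an exact conditional binomial interval of 1.02 to 4.11, which holds the median of 1.44 over genes. Its day 5 peak, at 109573167 to 109573692 with a −log10 q of 22.1, ranked highest of the 9 enzymes in that list, at 310 of 6727. MVK shares this region with MMAB, an adenosyltransferase of cobalamin metabolism that is read in the opposite direction. The summits lay 128 bp from the MMAB start at day 5 and 29 bp from it without doxycycline, and 418 and 319 bp before the listed MVK start. The peak cannot be assigned to one of the pair. The MVK promoter printed above overlapped the peak of each list.

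PMVK (chromosome 1, span 154924740 to 154942658), the next kinase, was not marked by its gene ends, although it had more fragments than any other of the 9 in either library. It had 33 fragments (22.7 to 46.3) at day 5 and 38 (26.9 to 52.2) without doxycycline. The peaks ran over 154936588 to 154937510 and 154936647 to 154937314, and both held the listed start at 154936719. The summits lay 252 and 284 bp before that start, and no other annotated gene had an end or listed start within 1 kb. Without doxycycline it ranked 73 of 3472, and at day 5 it ranked 367 of 6727. Its ratio of 0.868 (0.528 to 1.42) was the only one of 6 whose interval left out the median over genes. Of the genes with a pair, 7.16% had a lower ratio.

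MVD (chromosome 16, span 88651940 to 88663091), the decarboxylase, had no peak at its start in either list, the nearest lying 11.7 kb away at day 5 and 148 kb away without doxycycline. The day 5 peak that marked it had 11 fragments (5.49 to 19.7) and lay past its far end. Its summit was 105 bp from the start of CYBA, a subunit of the phagocyte NADPH oxidase, and 782 bp from the end of MVD. The MVD promoter printed above holds 3 copies of CCAAT and a CACGCG, so letters of this kind were present where no peak was listed.

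**Figure D2:**
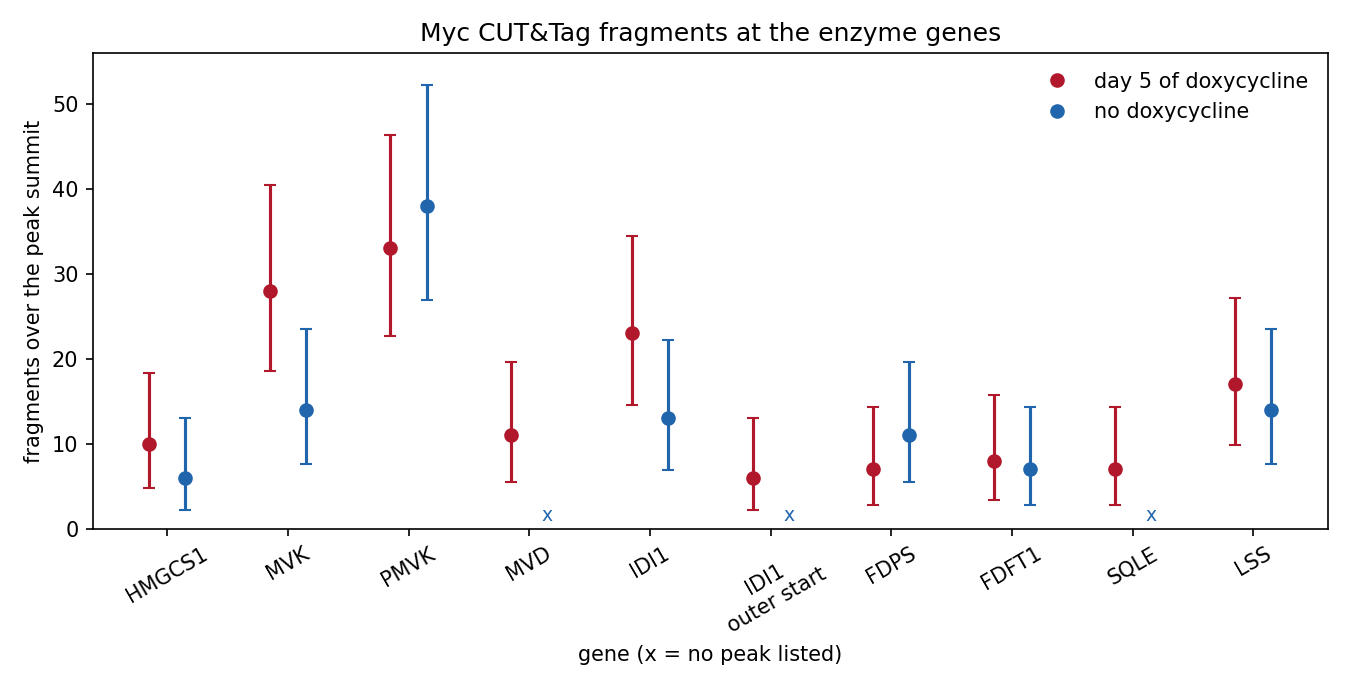
Fragments over the peak summit (linear axis from 0) for each enzyme at day 5 (red, left) and without doxycycline (blue, right), with exact Poisson 95% intervals, 1 library each, and x where no peak was listed. PMVK is highest in both libraries with 33 and 38, and the intervals of each pair overlap.

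The isoprenoid enzymes differed from each other. IDI1 (chromosome 10, span 1039152 to 1056704) had 3 listed starts, and its stronger peak was at the inner ones. There it had 23 fragments (14.6 to 34.5) at day 5 and 13 (6.92 to 22.2) without doxycycline, with the start at 1049119 inside both peaks. The ratio was 1.77 (0.859 to 3.80). A second peak, at the outer start, was listed at day 5 only, with 6 fragments (2.20 to 13.1). That one marked IDI1 by the gene ends, and its summit lay 127 bp from the start of WDR37, a WD-repeat protein gene read in the opposite direction, and 192 bp past the outer IDI1 start. Marked by gene ends, IDI1 thus appeared at day 5 only, while its stronger site was in both lists.

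FDPS (chromosome 1, span 155308866 to 155320665), the farnesyl diphosphate synthase, was the lowest-ranked of the paired peaks at day 5. It had 7 fragments (2.81 to 14.4) at day 5 and 11 (5.49 to 19.7) without doxycycline. The ratio of 0.636 (0.209 to 1.80) was lower than in all but 1.03% of genes, and its interval still held both 1 and the median over genes. The peaks ranked 6119 of 6727 and 1493 of 3472. The nearest coding gene end to both summits was the edge of the span of PKLR, the pyruvate kinase of liver and red cells, at 102 and 155 bp. The nearest listed PKLR start was 7318 and 7061 bp from the summits. The FDPS start was 110 and 367 bp away and lay inside both peaks.

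The enzymes that commit farnesyl diphosphate to sterols had few fragments, LSS excepted. LSS (chromosome 21, span 46188446 to 46228774), the lanosterol synthase, had 17 fragments (9.90 to 27.2) at day 5 and 14 (7.65 to 23.5) without doxycycline, a ratio of 1.21 (0.563 to 2.66). The peak was 1313 bp wide at day 5, with a summit 465 bp before the start and 8 bp from the start of the non-coding MCM3AP-AS1. It was 445 bp wide without doxycycline, with a summit 12 bp past the LSS start. Both peaks held the CACGTG shown above.

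SQLE (chromosome 8, span 124998505 to 125022283), the squalene epoxidase, was listed at day 5 only, with 7 fragments (2.81 to 14.4) and a rank of 4968 of 6727. The peak, at 124998081 to 124998934, covered the lower-coordinate end of the span and reached the non-coding gene SQLE-DT. Without doxycycline the nearest peak was 459 kb away. FDFT1 (chromosome 8, span 11795582 to 11839298), the squalene synthase, was marked in neither list, its nearest peaks lying 7001 bp from an end at day 5 and 6676 bp without doxycycline. These peaks lay inside the span, with 8 fragments (3.45 to 15.8) at day 5 and 7 (2.81 to 14.4) without doxycycline. They overlapped by 32 bp, with summits 343 bp apart. FDFT1 had no listed start, so whether these peaks lie at a start inside the span could not be checked. A gene absent from a list may still carry Myc below the threshold used by the authors.

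**Figure D3:**
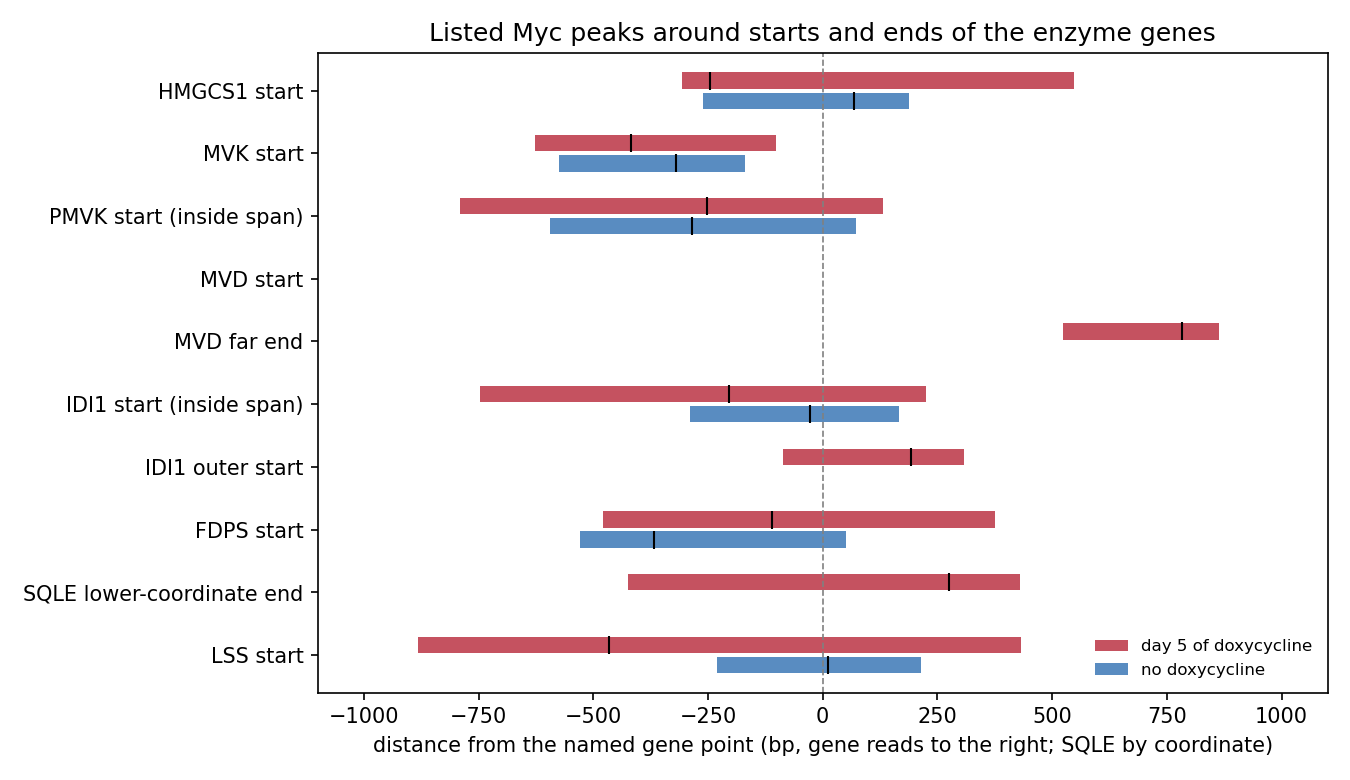
Listed Myc peaks (bars) and summits (ticks) at day 5 (red, upper) and without doxycycline (blue, lower), by distance in bp from the named start or end, with the gene reading to the right and SQLE shown by coordinate. Every paired bar is wider at day 5, the MVD start has no bar, and the MVD peak lies past its far end. FDFT1, whose peaks are over 6 kb from an end, is not drawn.

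The 6 enzymes with paired peaks at a listed start had 6 of 6 peaks wider at day 5, against 77.8% of the 2236 genes. Median widths were 889 bp at day 5 and 454 bp without doxycycline for the enzymes, and 733 and 544 bp for all genes with a pair. Summits lay before the nearest listed start in 6 of 6 enzymes at day 5, against 59.7% of genes, and in 4 of 6 without doxycycline, against 60.5%. The caller's local background was higher at day 5 for some enzymes and near equal for others. At LSS it was 2.05 fragments at day 5 and 0.967 without doxycycline, at MVK 1.47 and 0.759, at IDI1 1.64 and 0.759, and at HMGCS1 0.651 and 0.311. At PMVK it was 2.71 and 2.45, and at FDPS 0.822 and 0.829, and these were the enzymes with ratios under 1. The part of background and depth in the widths and ratios was not tested.

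The fragment ratios of the 6 enzymes ran from 0.636 at FDPS to 2.00 at MVK, with a median of 1.44, the same as over all genes with a pair. HMGCS1 had 1.67 (0.549 to 5.58). Of the 6, 3 were below the median over genes and 4 were above 1. For 5 of the 6 the interval held 1, MVK being the exception. For 5 of the 6 it held the median of 1.44 over genes, PMVK being the exception.

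**Figure D4:**
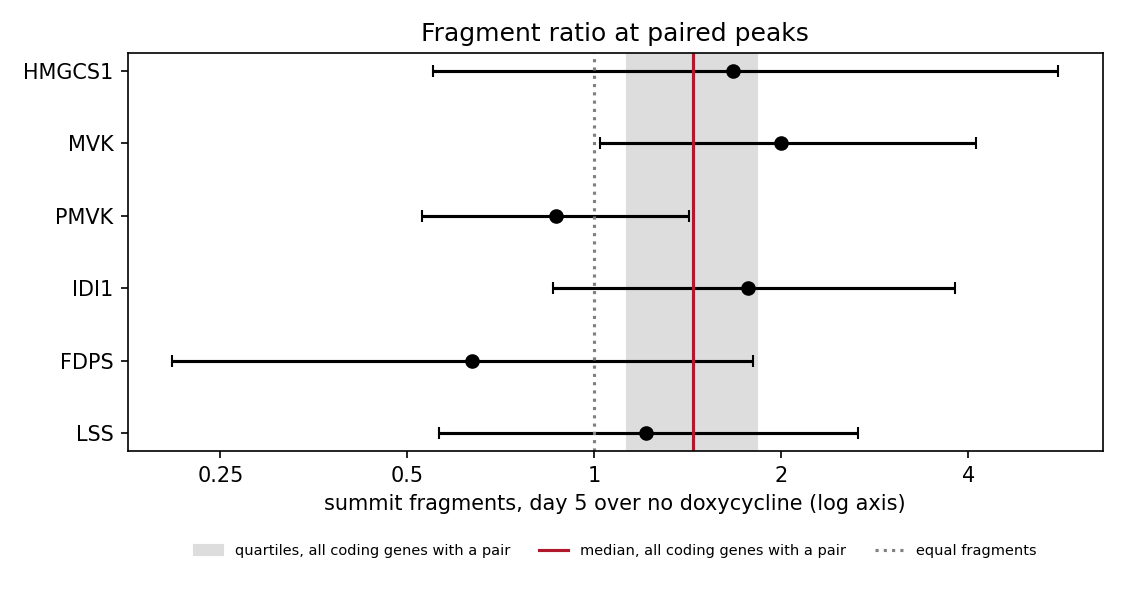
Ratio of summit fragments, day 5 over no doxycycline (log axis), for the 6 enzymes with paired peaks, with exact conditional binomial 95% intervals that cover counting error only. The red line and grey band are the median of 1.44 and the quartiles over 2236 coding genes. The interval of PMVK, 0.528 to 1.42, ends below the line.

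Other genes were set beside MVK by rank. Measured by the distance between percentile ranks in the 2 lists, over 2579 other coding genes marked in both, the gene most like MVK was MMAB, which has the same peaks. Next were HACL2, at a distance of 0.271 percentage points, with 33 fragments at day 5 and 18 without doxycycline, and NPM1, at 0.866, with 45 and 24. Likeness over 2 libraries is a description of ranks only.

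Other genes of the pathway were counted by the same rules. Of 48 other genes of sterol and isoprenoid metabolism, 23 (47.9%) had a peak within 1 kb of a gene end at day 5 and 14 (29.2%) without doxycycline, beside the 27.4% and 14.4% of all genes. By listed starts the counts were 17 of 40 (42.5%) at day 5 and 12 of 40 (30.0%) without doxycycline, beside 30.1% and 16.0% of all genes with a listed start. The rest of cholesterol synthesis was marked by gene ends in 5 of 12 cases at day 5 and 5 of 12 without doxycycline. The shares of all genes were the same 27.4% and 14.4%. ACAT2, CYP51A1 and EBP, a sterol isomerase, were among those in both lists. HSD17B7, a sterol reductase, was marked without doxycycline only, with 11 fragments (5.49 to 19.7). CYP51A1, which demethylates the lanosterol that LSS makes, had the highest-ranked day 5 peak of the list, with 30 fragments (20.2 to 42.8) at day 5 and 23 (14.6 to 34.5) without doxycycline. ACAT2, the thiolase at the head of the pathway, had 20 (12.2 to 30.9) and 8 (3.45 to 15.8).

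Genes that use isoprenoids were marked by gene ends in 6 of 12 cases at day 5 and 1 of 12 without doxycycline, beside 27.4% and 14.4% of all genes. Numbers this small are a description only. FNTB, a farnesyltransferase subunit, was in both. NUS1, a subunit of the dolichol-making enzyme, the ubiquinone genes COQ2, PDSS1 and PDSS2, and FNTA were at day 5 only. GGPS1, which makes geranylgeranyl diphosphate, was reached only through its listed start, like PMVK, with 18 fragments (10.7 to 28.4) at day 5 and 17 (9.90 to 27.2) without doxycycline. It was found after its values were seen.

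Genes of sterol control were marked by gene ends in 6 of 11 cases at day 5 and 4 of 11 without doxycycline, beside the same 27.4% and 14.4%. SREBF1 and SREBF2, which encode the SREBP factors, were at day 5 only, and MBTPS1, a protease that releases them, SP1, NFYA and NFYC were in both. NFYC, an NF-Y subunit, had 27 fragments (17.8 to 39.3) at day 5 and 21 (13.0 to 32.1) without doxycycline. Export and storage had 4 of 8 at day 5 and 3 of 8 without doxycycline, against 27.4% and 14.4% of all genes. There NR1H2, the oxysterol receptor LXR beta, had 23 fragments (14.6 to 34.5) at day 5 and 14 (7.65 to 23.5) without doxycycline past the far end of its span. At its listed start no peak was listed at day 5, and one of 5 fragments (1.62 to 11.7) was listed without doxycycline. NR1H3, the related receptor LXR alpha, was in both lists, through peaks that lay just past the higher-coordinate end of its span. SOAT1, which esterifies cholesterol, and MYLIP, a ubiquitin ligase, were at day 5 only. ABCA1, the cholesterol exporter, was without doxycycline only, with 5 (1.62 to 11.7).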

How the data were processed

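The deposited lists of 2 Myc CUT&Tag libraries were used, grouped by their titles. The submitters' processing notes name MACS2, Bowtie2, Trim Galore and deepTools and the build hg38. Versions, settings and any control library: not given in the sources used here. Each list has 10 columns and 1 library, with 6953 peaks at day 5 and 3559 without doxycycline in all. The deposited score is the integer part of 10 times the −log10 q-value. The authors also deposited the fold, a ratio over the caller's local background at the summit, the −log10 p-value and the offset of the summit. The smallest deposited −log10 q-value was 1.33 in both.

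Fragments were recovered as the whole number that gives the deposited fold, (fragments + 1)/(background + 1), and the Poisson tail. This held within 0.001 in −log10 p for 100% of peaks in each list. The median peak had 12.0 fragments at day 5 and 11.0 without doxycycline. PCR duplicates cannot be seen, so intervals cover counting error only. Tested on simulated data, 100% of fragment numbers were recovered in 6627 and 3431 simulated peaks, and 100% of 200 planted genes were found. The simulated peaks were made with the same formula and planted inside the 1 kb window, so this checks the code and not the data.

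Gene spans, starts and promoters came from RefSeq (GRCh38.p14), with starts listed for 15843 protein-coding genes, 7 of the 9 enzymes and 40 of the 48 other pathway genes. Exons were not annotated. Analyses used chromosomes 1 to 22, X and Y, Python 3.11.15, pandas 2.3.3 and SciPy 1.17.1. Alternatives were windows of 500 and 2500 bp, stricter lists, equal numbers of peaks, the gene end nearest the summit, listed starts, and stricter overlaps. All genes named were the enzymes, pathway genes with a peak (values for the 4 with the highest-ranked day 5 peak and those without doxycycline only), genes beside the same peaks, and the 3 genes nearest MVK by rank. GGPS1 was named in addition. Some pathway genes are counted in the list of 48 but not reported here by name. The enzymes, lists and rules were chosen with earlier results of these data known.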

Additional observations from a re-analysis of the deposited data

How the results depend on the processing

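The counts by gene ends, 7 of 9 enzymes at day 5, 4 without doxycycline and 4 in both, depended on the strength of peaks taken and on the gene a peak was given to. With only the stronger peaks of each list, 3369 at day 5 and 1736 without doxycycline, 3 enzymes were marked at day 5, 3 without doxycycline and 2 in both, against 15.3%, 8.02% and 6.88% of all coding genes. With the 3472 highest-ranked day 5 peaks, equal in number to the list without doxycycline, day 5 had 3 enzymes, HMGCS1, MVK and LSS. The share of all genes was 15.7%. The count without doxycycline was 4, against 14.4% of all genes, and 3 enzymes were in both lists, against 10.1%. When a peak counted only for the coding gene whose end lay nearest its summit, 4 enzymes remained at day 5, 2 without doxycycline and 2 in both, against 22.3%, 11.5% and 9.57% of all coding genes. In that setting MVD, IDI1 and FDPS went to neighbours, and MVK did so without doxycycline only. Of 50 alternative values, 44 stayed within 1.5 times the main count or within the interval of a ratio, and 6 moved, all named here. Listed starts, alone or with gene ends, took the counts without doxycycline and in both lists from 4 to 6. These changes fell exactly on the limit and are among the 44, although PMVK and IDI1 entered. Ratios from the highest peak in each list could not move, because each gene had 1 peak per list at a gene end. FDPS, SQLE and the outer IDI1 peak rest on 7 or fewer fragments at day 5, and the part of depth in their listing was not tested. No paired analysis was possible because each condition has 1 library.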
